A study of Mus musculus with 8 samples.

Results

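The major histocompatibility complex (MHC) genes and the genes that load peptides onto MHC molecules were followed in livers of diet-induced obese (DIO) mice treated with IXA4, a compound that activates the IRE1/XBP1s arm of the unfolded protein response, against livers of vehicle-treated DIO mice. The members were every gene symbol in the count table that starts with H2- and the symbols B2m, Tap1, Tap2, Tapbp, Tapbpl, Erap1, Nlrc5, Ciita and Cd74, in all 48 of 26166 symbols. They comprised 26 class I genes, 11 class II genes, 9 accessory genes and 2 genes, H2-Ke2 and H2-Ke6, that carry the H2 prefix because they lie in the complex but encode no MHC molecule. All animals were male C57BL/6N mice bought at 14 weeks of age and kept on a diet with 60% of its calories from fat for 3 weeks before dosing. The IXA4 group (n = 4 livers) received 50 mg/kg IXA4 by intraperitoneal injection once a day for 8 weeks. The vehicle group (n = 4 livers) received the carrier, a mixture of DMSO, Kolliphor EL, ethanol and saline. Both groups were obese, and lean animals were not part of the comparison. Whole liver RNA was sequenced, so each value is a mean over hepatocytes and all other cells of the organ.

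MHC class I molecules sit on nearly all nucleated cells and show peptides made from proteins inside the cell. The proteasome cuts these proteins, the TAP1/TAP2 transporter moves the peptides into the endoplasmic reticulum, ERAP1 trims them, and tapasin (Tapbp) and its relative TAPBPR (Tapbpl) help place them on a heavy chain bound to beta-2-microglobulin (B2m). NLRC5 is the transactivator of class I genes. MHC class II molecules are made mainly by dendritic cells, B cells and macrophages. They are held by the invariant chain CD74 until H2-DM exchanges its last fragment for a peptide, and their genes are switched on by CIITA. C57BL/6 mice carry the b haplotype of the complex, in which the E alpha gene is inactive. In liver, hepatocytes make class I molecules, including the secreted molecule Q10, and make little class II.

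The class I genes are close copies of each other, and the reads were 50 bases long, so the sequence they share is shown first. The mouse assembly NCBIM37 with its GENCODE vM1 annotation, the build used for the alignment, was searched for every 50-base stretch of each member's exons. The shares count stretches also present in exons of genes that do not overlap the member in the genome. Stretches in overlapping gene records were counted apart. They were most frequent in H2-Ke6 (79.3%), H2-T22 (31.1%), H2-T10 (28.3%), H2-Q4 (16.9%) and Tap2 (13.6%). H2-Q6 shared 33.3% of its stretches with other genes, H2-T22 shared 33.0%, H2-T10 shared 31.2% and H2-Q7 shared 28.1%. The partner of H2-T10 was mainly H2-T22, which held 29.2% of its stretches. H2-Q10 shared 19.9%, H2-D1 shared 13.8% and H2-K1 shared 11.5%. Among class II genes, H2-DMb1 and H2-DMb2 shared 27.9% and 28.7%, while H2-Aa, H2-Ab1 and H2-Eb1 shared 0%, as did B2m, Cd74 and Nlrc5. The stretch of H2-D1 found in the largest number of other genes, 16, lay at chr17:35402866-35402915 on the plus strand. It is printed below beside the aligned stretch of other class I members, with capitals for bases that differ from H2-D1. The same 50 bases were present in H2-K1, H2-Q6, H2-Q7, H2-T22, H2-T23 and H2-T3. A read from this stretch can be told from H2-D1 in H2-T10, H2-Q4 and H2-Bl by 1 base only, and in H2-Q10 by 2 bases.
H2-D1: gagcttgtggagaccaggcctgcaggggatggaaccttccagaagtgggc
H2-T22: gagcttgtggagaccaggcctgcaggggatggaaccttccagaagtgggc
H2-T10: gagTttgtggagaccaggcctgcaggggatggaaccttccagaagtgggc
H2-Q4: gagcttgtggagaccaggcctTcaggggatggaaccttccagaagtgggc
H2-Bl: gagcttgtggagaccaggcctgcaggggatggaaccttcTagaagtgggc
H2-Q10: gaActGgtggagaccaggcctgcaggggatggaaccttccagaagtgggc
H2-M3: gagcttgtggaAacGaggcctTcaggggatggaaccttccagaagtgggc
H2-M9: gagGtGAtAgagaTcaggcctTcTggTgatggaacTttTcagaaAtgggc

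The sources used here do not say how reads that match several genes were counted. The values of tested class I genes other than H2-M3 and H2-T24, and of the H2-DMb pair, are therefore uncertain. The shares do not bound this uncertainty, because reads of a more abundant partner could exceed the gene's own. H2-T10 averaged 16.7 CPM over all libraries and its main partner H2-T22 91.4 CPM. H2-Q7 averaged 42.2 CPM and its main partner H2-Q10 1616 CPM. H2-Q1, H2-Q2, Ciita and H2-Pb had no single record in the annotation and their sharing was not measured.

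**Figure D1:**
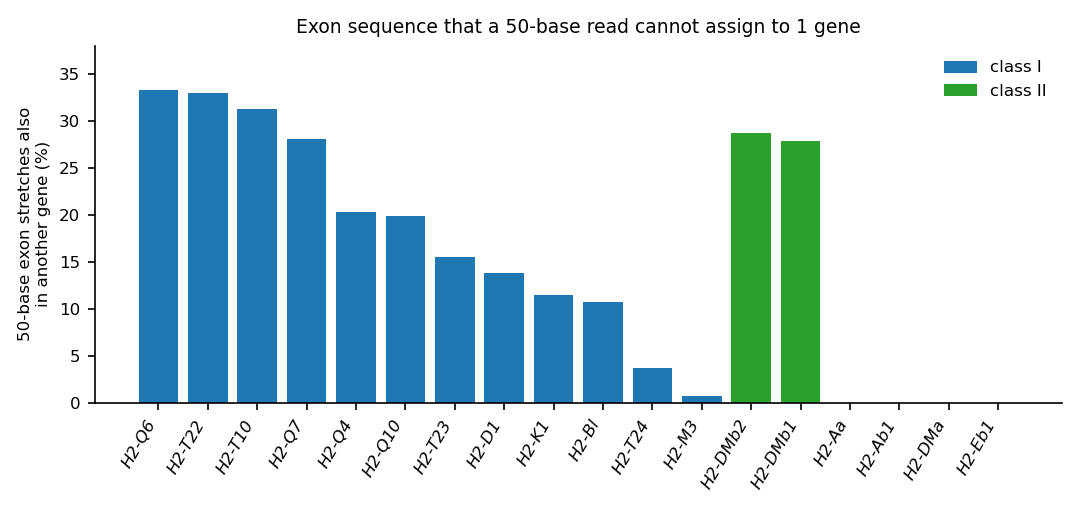
Bars give, for each tested class I (blue) and class II (green) gene with an annotation record, the percentage of 50-base stretches of its exons that also occur in exons of another gene. Gene records that overlap the gene in the genome are left out. The class I genes span 33.3% for H2-Q6 down to 0.752% for H2-M3, and 4 class II genes are at 0%.

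The libraries held 16986915 to 18390185 reads assigned to genes in IXA4-treated mice and 17399049 to 17807573 in vehicle-treated mice, of which the members took 0.483% to 0.662% in IXA4-treated mice and 0.495% to 0.558% in vehicle-treated mice. Levels are given as CPM, counts scaled for the size of each library by TMM, the trimmed mean of M values, and as means ± SD (n = 4 per group). Differences are log2 fold changes of IXA4 over vehicle with their standard error (SE), and p-values come from edgeR's quasi-likelihood test with Benjamini-Hochberg adjustment over all 12427 genes tested, with 0.05 as the threshold. Of the 48 members, 30 had enough reads to be tested, and 18 were filtered out for low counts. Hepatocyte genes dominated all libraries: the summed level of 6 hepatocyte markers was 84120 to 112900 CPM in IXA4-treated mice and 96680 to 122000 CPM in vehicle-treated mice, lowest in IXA4 replicate 4. Replicate numbers are those of the count columns and name libraries only. The IXA4 columns carry a numeric code in place of the treatment's name, so their group was inferred.

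Among the 8 tested accessory genes 3 were called higher in IXA4-treated mice, and among the 20 tested class I and class II genes 1 was, a difference that was not tested. Tapbpl, Tap1 and Nlrc5 rose 1.52- to 1.57-fold, and among the MHC genes only H2-T10 was called higher, by 1.46-fold. These were 4 of the 30 tested members, or 13.3%, and of all genes tested 3.69% were called higher. No member was called lower by edgeR, against 0.982% of all genes, and at an unadjusted p under 0.05 edgeR gave 10 higher (against 11.3% of all genes) and 0 lower (against 8.18% of all genes). DESeq2 called 6 members higher, against 5.12% of all genes, and 0 lower, against 2.06%. The 2 members DESeq2 added were B2m and H2-D1. The log2 fold change was positive for 24 and negative for 6 of the 30 members, with a median of 0.25, while the median of all genes tested was -0.02. In 4 members, Tapbpl, H2-T10, B2m and H2-D1, each IXA4 library lay above each vehicle library, and the reverse order held in 0 members. Among all genes tested these orders held in 7.44% and 5.24%. By subgroup, edgeR called 3 of 8 tested accessory genes higher (37.5%), 1 of 14 class I genes (7.14%) and 0 of 6 class II genes. With 1 library left out, the count of members called higher was 1 or 2. It was 1 without IXA4 replicate 2, IXA4 replicate 4, vehicle replicate 2 or vehicle replicate 4 and 2 without any of the other 4 libraries.

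**Figure D2:**
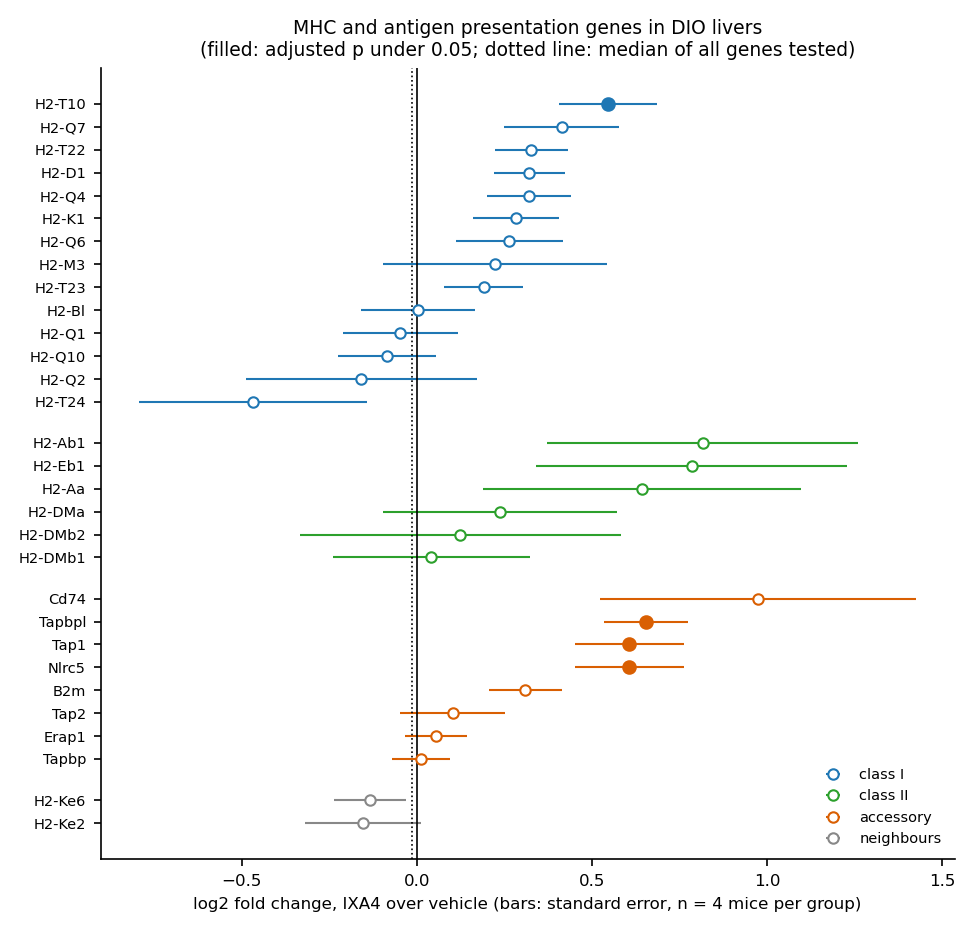
Points give the log2 fold change (IXA4 over vehicle) of the 30 tested members and bars the standard error, by subgroup, with filled points for an adjusted p under 0.05 and a dotted line at the median of all genes tested. The filled points are H2-T10, Tapbpl, Tap1 and Nlrc5, at 0.55 to 0.65, and H2-DMb2, H2-Aa, Cd74, H2-Eb1 and H2-Ab1 have the longest bars, with standard errors of 0.44 to 0.46.

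Tapbpl encodes TAPBPR, which edits the peptides of class I molecules outside the main loading complex (chromosome 6, 125173951 to 125181878, minus strand; NCBIM37). It was at 22.8, 20.1, 17.0 and 22.3 CPM in the 4 IXA4-treated mice and at 12.3, 13.2, 12.1 and 14.7 CPM in the 4 vehicle-treated mice. The lowest IXA4 library was above the highest vehicle library. The means were 20.6 ± 2.64 CPM with IXA4 and 13.1 ± 1.17 CPM with vehicle (SD, n = 4), and the log2 fold change was 0.65 (SE 0.12, edgeR adjusted p = 0.00871). Its call held in each of 13 alternative settings, with adjusted p between 1.71e-04 and 0.0411. Of its 50-base stretches 3.93% were shared with another gene.

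Tap1 encodes one chain of the peptide transporter (chromosome 17, 34324498 to 34334170, plus strand). It was at 33.3, 35.6, 19.9 and 27.9 CPM in IXA4-treated mice and at 20.6, 18.4, 19.4 and 18.2 CPM in vehicle-treated mice. Libraries 1, 2 and 4 of the IXA4 group exceeded all vehicle libraries, and IXA4 replicate 3 lay within the vehicle range. Its mean was 29.2 ± 6.96 CPM with IXA4 and 19.2 ± 1.11 CPM with vehicle (SD, n = 4 each; log2 fold change 0.61, SE 0.15, edgeR adjusted p = 0.0440). The call was lost without any 1 library other than IXA4 replicate 3, with adjusted p between 0.0702 and 0.123, and under scaling by total counts alone (edgeR adjusted p = 0.0767). Without IXA4 replicate 3 it was 0.00435. Tap2, the other chain of the transporter, was at 37.4, 33.2, 24.1 and 25.7 CPM in IXA4-treated mice and at 25.6, 26.5, 34.4 and 25.7 CPM in vehicle-treated mice, and missed the threshold (log2 fold change 0.10, SE 0.15, edgeR adjusted p = 0.758). The ratio of Tap1 to Tap2 counts was 0.827 to 1.08 in IXA4-treated mice and 0.562 to 0.807 in vehicle-treated mice, so the groups did not overlap in this ratio.

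Nlrc5, the class I transactivator gene (chromosome 8, 96996663 to 97051172, plus strand), was at 21.2, 26.3, 28.8 and 30.5 CPM in IXA4-treated mice and at 18.4, 17.6, 21.3 and 12.8 CPM in vehicle-treated mice. The annotation lists this Nlrc5 record as a long intergenic noncoding RNA. The groups overlapped in 1 place, where IXA4 replicate 1 was just under vehicle replicate 3. The means were 26.7 ± 4.01 CPM with IXA4 and 17.5 ± 3.52 CPM with vehicle (SD, n = 4 each; log2 fold change 0.61, SE 0.16, edgeR adjusted p = 0.0443). The call was lost without IXA4 replicate 2 (0.0576), IXA4 replicate 3 (0.107), IXA4 replicate 4 (0.107), vehicle replicate 1 (0.108), vehicle replicate 2 (0.117) or vehicle replicate 4 (0.0992). Ciita, its counterpart for class II genes, was filtered out at 72 reads over the 8 libraries, with 0.229 to 0.848 CPM in IXA4-treated mice and 0.303 to 0.611 CPM in vehicle-treated mice.

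B2m, the light chain of all classical class I molecules (chromosome 2, 121973422 to 121978819, plus strand), was the most abundant accessory gene. It was at 1611, 1730, 1399 and 1374 CPM in IXA4-treated mice and at 1182, 1252, 1287 and 1211 CPM in vehicle-treated mice. All IXA4 libraries were above all vehicle libraries, but the difference did not pass edgeR's test (log2 fold change 0.31, SE 0.11, edgeR adjusted p = 0.126). DESeq2 gave an adjusted p of 0.0443 for it, and over the 13 alternatives adjusted p ran from 0.0443 to 0.279. Erap1, the trimming peptidase gene, was at 63.2 ± 4.01 CPM with IXA4 and 60.9 ± 4.22 CPM with vehicle (SD, n = 4 each; log2 fold change 0.05, edgeR adjusted p = 0.786). Tapbp, the tapasin gene, was at 38.7 ± 2.06 CPM with IXA4 and 38.4 ± 0.929 CPM with vehicle (SD, n = 4 each; log2 fold change 0.01, edgeR adjusted p = 0.956). Tapasin and its relative TAPBPR thus had fold changes of 1.01 and 1.57, and the difference between them was not tested.

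**Figure D3:**
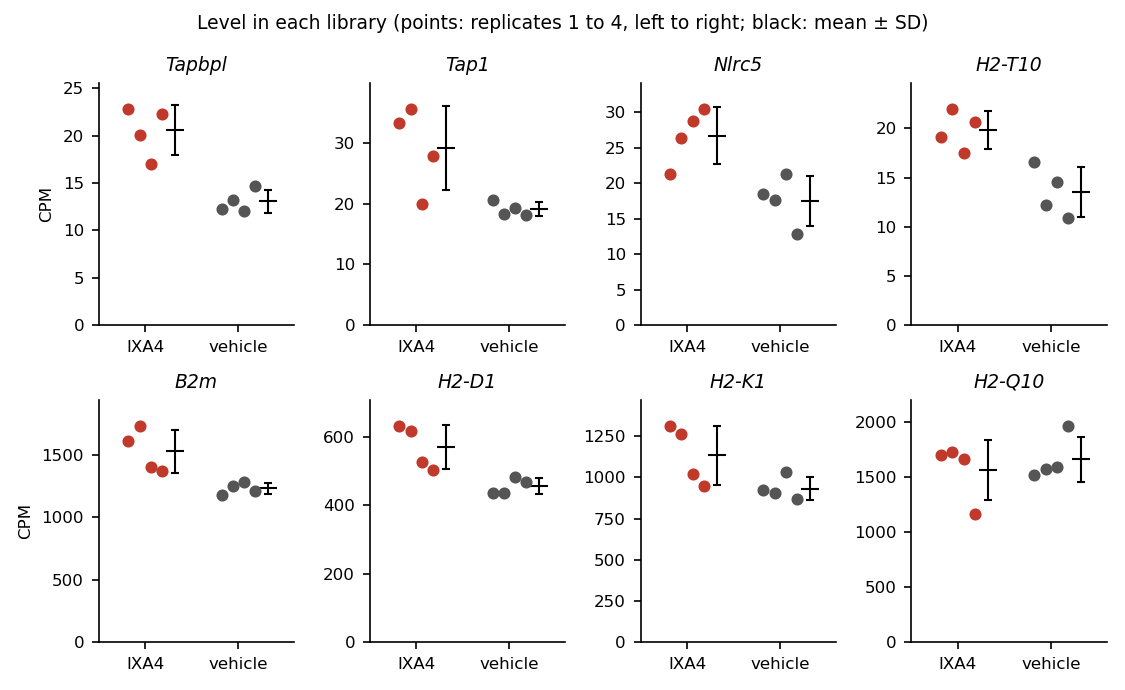
Each panel plots the CPM of 1 gene from a zero baseline, with IXA4 libraries in red at the left, vehicle libraries in grey at the right and mean ± SD in black (n = 4 per group). Groups are separate for Tapbpl, H2-T10, B2m and H2-D1, and overlap for Tap1, Nlrc5, H2-K1 and H2-Q10.

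The class I heavy chain genes differed widely in level. In CPM H2-Q10 was above H2-K1 in both groups, at 1568 and 1133 with IXA4 and 1665 and 931 with vehicle. Levels per kilobase were divided by all bases annotated as exon in any transcript, 4348 for H2-Q10 and 2608 for H2-K1. The order of genes on this scale depends on that length. Per kilobase H2-K1 and H2-Q10 led with 435 and 361 CPM per kb in IXA4-treated mice and 357 and 383 in vehicle-treated mice. H2-D1 followed with 220 CPM per kb with IXA4 and 176 with vehicle, and H2-T23 with 64.3 with IXA4 and 56.3 with vehicle. B2m was at 1777 CPM per kb with IXA4 and 1434 with vehicle. The summed level of all 26 class I genes was 3033 to 4160 CPM in IXA4-treated mice and 3260 to 3664 CPM in vehicle-treated mice, and the groups overlapped.

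H2-D1 and H2-K1 encode the classical class I molecules of this strain. H2-D1 (chromosome 17, 35399675 to 35404444, plus strand) was at 631, 617, 526 and 504 CPM in IXA4-treated mice and at 437, 436, 484 and 467 CPM in vehicle-treated mice. Each IXA4 library exceeded each vehicle library, yet the difference did not pass edgeR's test (log2 fold change 0.32, SE 0.10, edgeR adjusted p = 0.103; DESeq2 adjusted p = 0.0461, and 0.0461 to 0.245 over the 13 alternatives). H2-K1 (chromosome 17, 34132962 to 34137278, minus strand) was at 1309, 1259, 1019 and 946 CPM in IXA4-treated mice and at 921, 904, 1033 and 868 CPM in vehicle-treated mice. Libraries 1 and 2 of the IXA4 group were above the vehicle range and libraries 3 and 4 within it (log2 fold change 0.28, SE 0.12, edgeR adjusted p = 0.225). The ratio of H2-K1 to H2-D1 counts was 1.88 to 2.07 in IXA4-treated mice and 1.86 to 2.13 in vehicle-treated mice, with overlap.

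H2-Q10 encodes a secreted class I molecule that hepatocytes make (chromosome 17, 35607034 to 35611508, plus strand), and its fitted log2 fold change was negative and did not pass the test. It was at 1706, 1735, 1665 and 1166 CPM in IXA4-treated mice and at 1523, 1572, 1598 and 1965 CPM in vehicle-treated mice. The lowest value was in IXA4 replicate 4 and the highest in vehicle replicate 4, and the other 3 libraries of each group lay within 1523 to 1735 CPM. Its log2 fold change was -0.09 (SE 0.14, edgeR adjusted p = 0.783). Leaving out IXA4 replicate 4 gave 0.03 and leaving out vehicle replicate 4 gave 0.0021. The ratio of H2-D1 to H2-Q10 counts was 0.316 to 0.433 in IXA4-treated mice and 0.238 to 0.303 in vehicle-treated mice, with no overlap. Without libraries numbered 4 in both groups the ranges were 0.316 to 0.370 with IXA4 and 0.277 to 0.303 with vehicle. The ratio of H2-K1 to H2-Q10 counts was 0.612 to 0.812 in IXA4-treated mice and 0.442 to 0.646 in vehicle-treated mice, and the groups overlapped. The 6 hepatocyte markers did not move together in IXA4 replicate 4. There Alb, Apoa1 and Ttr, genes of secreted plasma proteins, were at their lowest of the 8 libraries, with 67018, 6229 and 4103 CPM, Apob and Hnf4a were at their highest, with 5536 and 229 CPM, and Tat lay within the range of the other IXA4 libraries, with 1005 CPM. The part of the hepatocyte genes in the values of H2-Q10 was not tested.

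The nonclassical class I genes gave 1 call. H2-T10 (chromosome 17, 36252821 to 36258410, minus strand) was at 19.1, 21.98, 17.5 and 20.7 CPM in IXA4-treated mice and at 16.6, 12.2, 14.6 and 10.9 CPM in vehicle-treated mice, with no overlap between the groups. T10 and its near copy T22 are class I molecules that bind no peptide and are recognised by gamma delta T cells. The mean of H2-T10 was 19.8 ± 1.95 CPM with IXA4 and 13.6 ± 2.55 CPM with vehicle (SD, n = 4 each; log2 fold change 0.55, SE 0.14, edgeR adjusted p = 0.0435). The call was lost without any 1 library other than vehicle replicate 1, with adjusted p between 0.0521 and 0.136, and under scaling by total counts alone (edgeR adjusted p = 0.0659). The annotation lists H2-T10 as a polymorphic pseudogene, and the stretches it shares with H2-T22, given above, apply to these counts. H2-T22 was at 110, 113, 86.3 and 97.5 CPM in IXA4-treated mice and at 81.6, 76.3, 89.8 and 76.9 CPM in vehicle-treated mice, a difference short of the threshold (log2 fold change 0.33, SE 0.10, edgeR adjusted p = 0.105). The ratio of H2-T10 to H2-T22 counts was 0.174 to 0.212 in IXA4-treated mice and 0.142 to 0.204 in vehicle-treated mice, and the groups overlapped.

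The remaining class I genes above 1 CPM did not pass the test. H2-Q7, a gene for the Qa-2 antigen, was at 48.2 ± 7.60 CPM with IXA4 and 36.2 ± 8.34 CPM with vehicle (SD, n = 4 each; log2 fold change 0.41, SE 0.16, edgeR adjusted p = 0.195). H2-Q6 and H2-Q4 had log2 fold changes of 0.26 (SE 0.15) and 0.32 (SE 0.12). H2-T23, which encodes Qa-1, the ligand of the CD94/NKG2 receptors of natural killer cells, was at 186 ± 21.0 CPM with IXA4 and 163 ± 20.6 CPM with vehicle (SD, n = 4 each; log2 fold change 0.19, SE 0.11, edgeR adjusted p = 0.386). H2-M3, which encodes the molecule that presents formylated bacterial peptides, was at 1.89 ± 0.639 CPM with IXA4 and 1.62 ± 0.586 CPM with vehicle (SD, n = 4 each; log2 fold change 0.22, SE 0.32). H2-Q1 was at 45.8, 44.4, 43.1 and 26.2 CPM in IXA4-treated mice and at 34.9, 42.5, 39.7 and 47.7 CPM in vehicle-treated mice, lowest in IXA4 replicate 4 and highest in vehicle replicate 4 as H2-Q10 was (log2 fold change -0.05, SE 0.16). H2-Bl, like H2-T10 listed as a polymorphic pseudogene, was at 8.21 ± 1.72 CPM with IXA4 and 8.18 ± 1.01 CPM with vehicle (SD, n = 4). Among the members under 1 CPM, H2-T24, H2-Q2 and H2-DMb2 were tested and not called. The 18 members filtered out, 12 class I, 5 class II and Ciita, had 0 to 72 reads each over the 8 libraries, and 7 of them had 0.

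The 6 tested class II genes had positive log2 fold changes, with a median of 0.44, and 0 of them passed edgeR's test, 0 at an unadjusted p under 0.05, and 0 by DESeq2. Without IXA4 replicate 2 the values of H2-DMa and H2-DMb1 turned negative, at -0.17 and -0.36. For H2-DMb2, under 1 CPM, fits with a library left out were not summarised. It was at 0.678, 1.81, 0.458 and 0.493 CPM in IXA4-treated mice and at 0.921, 0.722, 0.424 and 1.04 CPM in vehicle-treated mice. H2-Aa and H2-Ab1 encode the 2 chains of the A molecule and H2-Eb1 a beta chain of the E molecule. H2-Ab1 (chromosome 17, 34400154 to 34406363, plus strand) was at 31.0, 57.7, 13.8 and 23.2 CPM in IXA4-treated mice and at 15.6, 24.3, 12.0 and 19.3 CPM in vehicle-treated mice. H2-Aa (chromosome 17, 34406276 to 34424772, minus strand) was at 38.5, 62.2, 14.8 and 25.9 CPM in IXA4-treated mice and at 19.9, 32.5, 14.7 and 23.4 CPM in vehicle-treated mice. H2-Eb1 (chromosome 17, 34442828 to 34453144, plus strand) was at 27.1, 47.3, 10.3 and 17.6 CPM in IXA4-treated mice and at 13.5, 18.7, 11.5 and 15.6 CPM in vehicle-treated mice. The 3 genes ran together: IXA4 replicate 2 was highest and replicate 3 lowest in the IXA4 group, and vehicle replicate 2 was highest and replicate 3 lowest in the vehicle group.

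Cd74, the invariant chain gene (chromosome 18, 60963502 to 60972300, plus strand), followed the same order among IXA4 libraries, at 131, 195, 45.3 and 79.1 CPM, against 53.8, 68.1, 38.8 and 68.9 CPM in vehicle-treated mice. Its log2 fold change was 0.97 with an SE of 0.45 (edgeR adjusted p = 0.300), and 0.58 without IXA4 replicate 2. The log2 fold changes of H2-Ab1, H2-Eb1 and H2-Aa were 0.82 (SE 0.44), 0.78 (SE 0.44) and 0.64 (SE 0.45), with adjusted p of 0.374, 0.393 and 0.499. The highest IXA4 library was 4.20 to 4.59 times the lowest in these genes and Cd74, against 1.63 to 2.21 times in the vehicle group. The count ratio of Cd74 to H2-Ab1 stayed within 3.29 to 4.23 with IXA4 and 2.80 to 3.58 with vehicle. H2-DMa, one chain of the peptide exchange factor, was at 3.96, 6.65, 1.72 and 2.85 CPM in IXA4-treated mice and at 2.82, 3.00, 3.21 and 3.82 CPM in vehicle-treated mice (log2 fold change 0.24, SE 0.33, edgeR adjusted p = 0.750). H2-DMb1, a gene for the other chain, was at 2.60, 5.89, 2.29 and 2.74 CPM in IXA4-treated mice and at 2.87, 3.39, 2.97 and 3.87 CPM in vehicle-treated mice (log2 fold change 0.04, SE 0.28, edgeR adjusted p = 0.954). H2-Ea-ps, the inactive E alpha gene of this haplotype, had 0 reads in all 8 libraries. H2-Oa and H2-Ob, which encode the modulator H2-O, were filtered out at 24 and 25 reads. Summed over the 11 class II genes, IXA4-treated mice had 104, 182, 43.5 and 72.8 CPM and vehicle-treated mice had 56.0, 82.9, 45.6 and 67.7 CPM. The log2 ratio of the group means was 0.67, and 0.22 without IXA4 replicate 2.

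**Figure D4:**
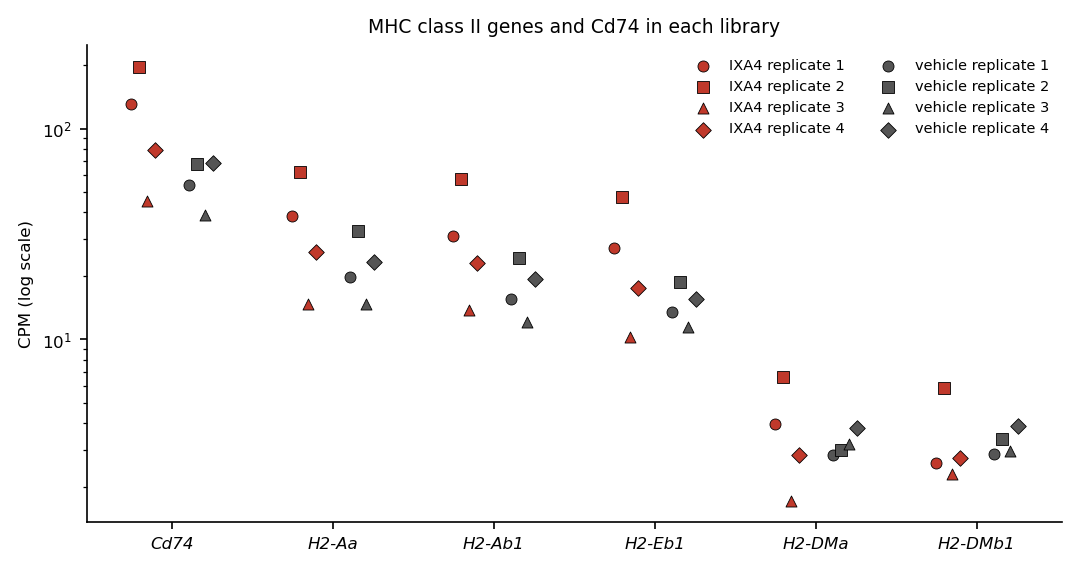
Points give CPM on a log axis for 5 class II genes and Cd74, with IXA4 libraries in red left of vehicle libraries in grey and 1 marker shape per replicate number (numbers do not pair the groups). In each gene the red square, IXA4 replicate 2, is highest and the red triangle, IXA4 replicate 3, is lowest of the IXA4 libraries, and the groups overlap.

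In bulk liver, fewer cells of a type and less RNA per cell cannot be told apart, so markers of cells that carry class II are given beside these genes. The summed level of 5 genes of all leukocytes was 34.6, 43.3, 21.0 and 38.2 CPM in IXA4-treated mice and 22.3, 23.1, 16.9 and 28.2 CPM in vehicle-treated mice, with a median log2 fold change of 0.67. Of these 5 genes 0 passed edgeR's test, 3 were higher at an unadjusted p under 0.05, and DESeq2 called 1 higher. Without IXA4 replicate 3 edgeR called 2 higher, and 1 with DESeq2 size factors or with at least 10 counts in every library. The highest and lowest IXA4 libraries in this sum were the same as for class II. In vehicle-treated mice both sums were lowest in replicate 3, but the leukocyte sum was highest in replicate 4 and the class II sum in replicate 2. Among IXA4 libraries the sum of monocyte-derived cell markers, given below, had the same highest and lowest library as class II. The sums of dendritic cell, B cell and macrophage markers did not match class II in both. Of 10 dendritic cell markers 7 were filtered out and 0 of the other 3 passed the test (median 0.13), with a summed level of 3.56 to 6.65 CPM with IXA4 and 3.39 to 5.39 CPM with vehicle. All 8 B cell markers were filtered out, with sums of 0.991 to 2.03 CPM with IXA4 and 0.908 to 2.40 CPM with vehicle, and all 9 T and natural killer cell markers likewise, with 1.09 to 4.97 CPM with IXA4 and 1.14 to 2.94 CPM with vehicle. Of 11 macrophage and Kupffer cell markers 0 passed (median -0.17), with sums of 250 to 439 CPM with IXA4 and 209 to 455 CPM with vehicle. Of 3 tested monocyte-derived cell markers S100a4 passed, at 3.89 to 7.93 CPM with IXA4 and 0.222 to 0.726 CPM with vehicle (log2 fold change 3.54, SE 0.36, edgeR adjusted p = 1.71e-04), and the sums of all 6 were 29.1 to 78.4 CPM with IXA4 and 18.9 to 32.7 CPM with vehicle. The neutrophil list gave 0 calls by edgeR among 3 tested (median 0.84). Of these, 1 was higher at an unadjusted p under 0.05, and DESeq2 called 1 higher. The neutrophil sums were 8.02 to 12.9 CPM with IXA4 and 3.45 to 9.88 CPM with vehicle. The sinusoidal endothelial list gave 1 lower call of 6, Oit3 (log2 fold change -1.15; median -0.54; sums of 88.7 to 162 CPM with IXA4 and 116 to 204 CPM with vehicle). The mesothelial list gave 2 higher calls of 6, Krt19 (1.30) and Upk1b (1.71). Its median was 1.14, with sums of 11.1 to 40.6 CPM with IXA4 and 8.62 to 21.7 CPM with vehicle. The hepatocyte list gave 0 calls of 6 by edgeR (median -0.04), and DESeq2 called 1 lower. With 1 library left out, the mesothelial list gave 0 to 2 higher calls (0 without IXA4 replicate 1, IXA4 replicate 3, vehicle replicate 1 or vehicle replicate 2) and the sinusoidal endothelial list 0 to 2 lower calls (0 without IXA4 replicate 2, IXA4 replicate 3 or vehicle replicates 1, 2 or 4). The part of these cells in the class II values was not tested.

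Of 10 other genes listed for peptide loading and the immunoproteasome, 2 rose, Sec61a1 and Pdia3, whose products sit in the endoplasmic reticulum. This was 20% of the list, against 3.69% of all genes, and the count was 1 to 3 over the alternatives. The list is broader than its name, as Sec61a1 is neither a peptide loading nor an immunoproteasome gene. Sec61a1, the core of the translocation channel, was at 94.1, 79.5, 114 and 172 CPM in IXA4-treated mice and at 45.5, 45.4, 50.0 and 42.7 CPM in vehicle-treated mice (log2 fold change 1.32, SE 0.21, edgeR adjusted p = 0.00612). Pdia3, which encodes the disulfide isomerase ERp57 of the loading complex, was at 526, 518, 595 and 1081 CPM in IXA4-treated mice and at 293, 322, 369 and 305 CPM in vehicle-treated mice (log2 fold change 1.08, SE 0.23, edgeR adjusted p = 0.0260). IXA4 replicate 4 was highest in both genes, and all IXA4 libraries were above all vehicle libraries. The call of Pdia3 was lost without vehicle replicate 1 (edgeR adjusted p = 0.0885), vehicle replicate 2 (0.0749) or vehicle replicate 4 (0.0765) and with no filter on low counts (0.0737). Calr, the gene of the chaperone calreticulin, had separate groups but an adjusted p of 0.0528 (edgeR; log2 fold change 0.99). The immunoproteasome subunit genes Psmb8, Psmb9 and Psmb10, chosen after their values were seen, were not called, with log2 fold changes of 0.39 (SE 0.15), 0.49 (SE 0.28) and 0.17 (SE 0.21). Psmb9, which starts beside Tap1 on the opposite strand, was at 28.8, 34.9, 12.4 and 18.8 CPM in IXA4-treated mice and at 15.2, 18.6, 16.0 and 17.6 CPM in vehicle-treated mice. In IXA4-treated mice Psmb8, Psmb9, Psmb10 and Tap1 had the order of libraries seen for H2-Ab1, with replicate 2 highest, then 1, 4 and 3. In vehicle-treated mice replicate 3 was lowest for H2-Ab1 but not for Psmb8, Psmb9, Psmb10 or Tap1.

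Of 19 tested genes that transcribe MHC genes or carry the interferon signal to them, 1 rose (5.26%, close to the 3.69% of all genes). Irf1, a factor that binds interferon response elements, was at 26.3, 14.9, 19.7 and 33.8 CPM in IXA4-treated mice and at 11.5, 11.2, 14.4 and 9.39 CPM in vehicle-treated mice (log2 fold change 1.03, SE 0.23, edgeR adjusted p = 0.0342). The lowest IXA4 library, replicate 2, was close to vehicle replicate 3. The call was lost without IXA4 replicate 1 (edgeR adjusted p = 0.0844), vehicle replicate 1 (0.108), vehicle replicate 2 (0.102) or vehicle replicate 4 (0.0913) and with no filter (0.0636). Jak1, the most abundant gene of this list, was at 61.6 to 89.8 CPM in IXA4-treated mice and 63.3 to 74.8 CPM in vehicle-treated mice and was not called (log2 fold change 0.08). Of 18 interferon-stimulated genes 2 rose (11.1%, against 3.69% of all genes, and 0 to 3 genes with 1 library left out, 0 without vehicle replicate 4), Irgm1 and Iigp1, both interferon-inducible GTPase genes, with log2 fold changes of 0.54 (SE 0.12, edgeR adjusted p = 0.0227) and 0.64 (SE 0.14, edgeR adjusted p = 0.0253). Irgm1 was at 42.5, 46.2, 31.6 and 40.0 CPM in IXA4-treated mice and at 26.4, 30.2, 28.6 and 25.4 CPM in vehicle-treated mice. The call of Irgm1 was lost without IXA4 replicate 1 (edgeR adjusted p = 0.0552), vehicle replicate 1 (0.0847) or vehicle replicate 4 (0.0747), and that of Iigp1 without IXA4 replicate 3 (0.0588), vehicle replicate 2 (0.0766) or vehicle replicate 4 (0.0678). The median of this list was 0.42, and 13 of its genes were positive and 5 negative.

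Class I-like molecules and class II processing enzymes had 0 calls by edgeR. Of 6 tested class I-like genes 0 were higher and 0 lower by edgeR, 2 were lower at an unadjusted p under 0.05, and DESeq2 called 1 lower. Azgp1, the most abundant of them, had a log2 fold change of -0.06 (edgeR adjusted p = 0.777). Hfe, whose product limits iron uptake, and Fcgrt, the gene of the neonatal Fc receptor heavy chain that pairs with beta-2-microglobulin, had each IXA4 library below each vehicle library, with log2 fold changes of -0.35 (SE 0.11, edgeR adjusted p = 0.0862) and -0.32 (SE 0.09, edgeR adjusted p = 0.0651). These 2 genes were chosen after their values were seen. Of 4 class II processing genes 0 passed edgeR's test, 0 at an unadjusted p under 0.05, and 0 by DESeq2. Ctsl, a cathepsin gene and the most abundant of them, had a log2 fold change of 0.10 (edgeR adjusted p = 0.640).

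The 2 genes that share the H2 prefix without encoding an MHC molecule had negative values. H2-Ke6, an alias of the steroid dehydrogenase gene Hsd17b8, was at 94.3 ± 8.93 CPM with IXA4 and 103 ± 10.4 CPM with vehicle (SD, n = 4 each; log2 fold change -0.13, SE 0.10, edgeR adjusted p = 0.518). H2-Ke2, an alias of the prefoldin subunit gene Pfdn6, was at 14.8 ± 2.67 CPM with IXA4 and 16.4 ± 3.45 CPM with vehicle (SD, n = 4 each; log2 fold change -0.15, SE 0.17, edgeR adjusted p = 0.666).

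Start-proximal sequences are shown for 4 class I route genes, picked after their values were seen because they differed in pattern. They are B2m and H2-D1, whose groups were separate, H2-T22, and H2-Q10, which had a negative log2 fold change. The sequences are from RefSeq (GRCm38.p6), 200 bases before the start in the 5′ to 3′ direction of the gene. Capitals mark matches, on either strand, to CCAAT (the Y box letters), GAAA, any 2 bases and GAAA (a form of the interferon-stimulated response element), TTCNNNGAA (the interferon-gamma activated site) and ACGTG (a core bound by XBP1s). In windows of 250 bases before the start, these letters were found in 33.8%, 2.98%, 7.02% and 16.6% of all 32851 promoters in the table. In H2-T22 a CCAAT match and the response element lie near the first base of the printed run, and the CCAAT match begins before it. B2m lies at chr2:122147487-122147686, H2-D1 at chr17:35262894-35263093 and H2-Q10 at chr17:35469889-35470088, all on the plus strand, and H2-T22 at chr17:36042743-36042942 on the minus strand.
B2m: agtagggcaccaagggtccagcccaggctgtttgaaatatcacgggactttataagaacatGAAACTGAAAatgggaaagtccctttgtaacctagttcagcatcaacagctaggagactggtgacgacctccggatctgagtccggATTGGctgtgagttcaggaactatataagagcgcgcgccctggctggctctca
H2-D1: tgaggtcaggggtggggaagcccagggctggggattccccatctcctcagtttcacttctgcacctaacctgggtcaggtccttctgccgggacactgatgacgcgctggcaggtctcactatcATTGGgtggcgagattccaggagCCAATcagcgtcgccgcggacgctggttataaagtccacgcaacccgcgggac
H2-T22: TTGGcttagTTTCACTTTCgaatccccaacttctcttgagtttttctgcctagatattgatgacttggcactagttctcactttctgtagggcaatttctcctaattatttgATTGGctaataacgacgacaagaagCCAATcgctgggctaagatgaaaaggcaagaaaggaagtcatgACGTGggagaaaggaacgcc
H2-Q10: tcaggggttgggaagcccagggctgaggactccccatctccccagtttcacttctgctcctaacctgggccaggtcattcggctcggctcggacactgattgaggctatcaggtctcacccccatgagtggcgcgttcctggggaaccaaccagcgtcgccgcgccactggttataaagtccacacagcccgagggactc

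B2m held the response element 139 bases and a CCAAT match 53 bases before its start. H2-D1 held CCAAT matches at 76 and 53 bases and none of the other letters. H2-T22 held 3 CCAAT matches, the response element at 191 bases and ACGTG at 20 bases. H2-Q10 held none of the 4 in its window, which says only that these exact letters are missing there. Tap1 held a CCAAT match at 222 bases and none of the others. None of B2m, H2-D1, H2-T22 and H2-Q10 was called by edgeR, and the groups overlapped in H2-T22 and H2-Q10. Further genes that were not called and whose groups overlapped held matches too. H2-T23 held the response element at 124 bases and a CCAAT match at 52 bases. H2-Q4 and H2-Q7 held ACGTG at 71 and 62 bases beside CCAAT matches, and H2-K1 held CCAAT matches. Erap1 held ACGTG at 188, 30 and 29 bases, and H2-M3 held it at 200 bases. A relation between matches and fold changes was not tested. H2-T10, Nlrc5 and Tapbpl were not matched in the promoter table.

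**Figure D5:**
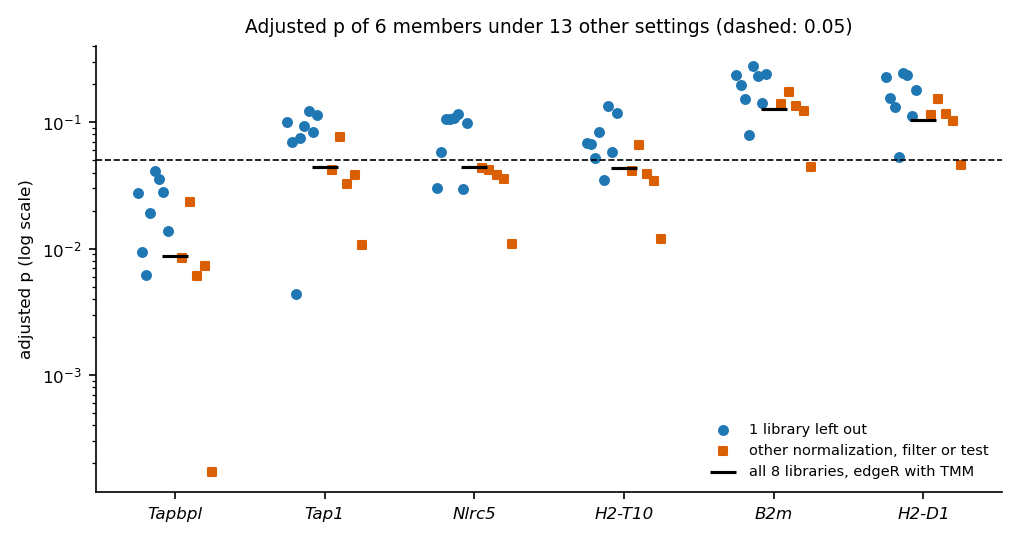
For 6 members, points give the adjusted p (log axis) with 1 library left out (blue circles) and under another normalization, filter or test (orange squares), black bars the value of edgeR with TMM on all 8 libraries, and the dashed line 0.05. All points of Tapbpl are below the line, those of Tap1, Nlrc5 and H2-T10 lie on both sides, and B2m and H2-D1 have 1 point below it, DESeq2.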

How the data were processed

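Liver RNA of DIO mice dosed with IXA4 (n = 4) or vehicle (n = 4), separate animals per the labels, was sequenced as single-end reads of 50 bases. The authors aligned the reads to MGSCv37 with SeqManPro and quantified genes in ArrayStar with QSeq, and they deposited whole-number counts per gene symbol. For strand and for reads that match several genes, the counting rule was not given in the sources used here. A deposited table of the authors' own DESeq comparison (group means, fold changes and p-values) was not used. No count column names an animal. The vehicle columns carry the group's name and the other 4 a numeric code. These were taken as IXA4 because the same code names the deposited comparison of IXA4 and because IXA4 is the only other group, which is an inference.

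Counts were tested in R 4.3.3 with edgeR 4.0.16 (TMM, filterByExpr with a minimum count of 10 and total of 15, robust quasi-likelihood fit), without covariates. Alternatives were DESeq2 1.42.0, DESeq2 size factors, total counts, no filter, at least 10 counts in every library, each library left out and, for summed levels, class I without genes of over 25% shared stretches and class II per kilobase. The edgeR step was tested on simulated data. Of 26166 symbols 12427 were tested. No 2 libraries of a group agreed within sampling noise (12 pairs). Depth was 16986915 to 18390185 reads per library. P-values set the difference between the groups against the spread between these animals. Intervals for single counts were not used.

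Members with a mean of at least 1 CPM or past the test are named (27). From each other list, up to 3 genes of smallest p per direction among those called and the most abundant gene not called are named, and from cell marker lists those called. One result under this rule is not reported here. Members and lists were chosen with earlier results of these data known, so member counts are descriptions. Exon sequence came from NCBIM37 with GENCODE vM1, and promoter sequence from RefSeq (GRCm38.p6).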

Additional observations from a re-analysis of the deposited data

Results flagged for a closer look

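A library that stood far from the other 3 of its group, by Dixon's criterion with a critical value of 0.829, was found 5 times among 54 groups of 4 examined, and chance alone gives about 1 in 20. H2-Q10 was at 1166 CPM in IXA4 replicate 4 (the others at 1665 to 1735 CPM) and at 1965 CPM in vehicle replicate 4 (the others at 1523 to 1598 CPM). H2-Q1 was at 26.2 CPM in IXA4 replicate 4, with the others at 43.1 to 45.8 CPM. H2-DMb1 was at 5.89 CPM in IXA4 replicate 2, with the others at 2.29 to 2.74 CPM. Tap2 was at 34.4 CPM in vehicle replicate 3, with the others at 25.6 to 26.5 CPM.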

How the results depend on the processing

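No paired analysis was possible because the count columns carry no animal numbers and the labels of the groups share fewer than 2 numbers. Tapbpl passed in each of 13 alternatives. Nlrc5 fell short in 6, and Tap1 and H2-T10 in 8 each, with the log2 fold change positive throughout. B2m and H2-D1 passed with DESeq2 only. Under scaling by total counts alone, 2 members and 0 class I genes were higher. DESeq2 called 2 class I genes higher, and 256 of all genes lower against 122 by edgeR. With 1 library left out, the numbers higher were 1 to 2 members, 0 to 1 class I genes, 1 to 2 accessory genes and 252 to 612 of all genes (458 with all libraries), and 43 to 159 of all genes were lower. The log2 ratio of the summed class I level was 0.12 with all libraries, 0.060 to 0.20 with 1 library left out and 0.11 without class I genes of more than 25% shared stretches or with none measured. The causes were not tested, although a fit on fewer libraries has less precision.

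The sign of the log2 fold change turned 19 times, in 8 of 27 named members, none of them called. With 1 library left out, Tapbp ranged between -0.017 and 0.039 (negative without IXA4 replicate 1 or vehicle replicate 1), Tap2 between -0.018 and 0.23 (negative without IXA4 replicate 1) and H2-Bl between -0.13 and 0.10 (negative without IXA4 replicates 1 or 2 or vehicle replicates 1 or 3). H2-Q10 ranged between -0.13 and 0.032 and H2-Q1 between -0.12 and 0.11, both positive without IXA4 replicate 4 or vehicle replicate 4. H2-M3 ranged between -0.018 and 0.37 and H2-DMb1 between -0.36 and 0.18, both negative without IXA4 replicate 2 or vehicle replicate 1, and H2-DMa between -0.17 and 0.47, negative without IXA4 replicate 2. With total counts alone Tapbp was -0.021 and H2-Bl -0.031, and with no filter H2-Bl was -0.0036. Counts of class I genes that share exon sequence may hold reads of other genes, which the standard errors do not cover.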
